A study of Mus musculus with 7 samples.

Results

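A set of 9 cytokine genes of the interleukin and tumour necrosis factor (TNF) families and 1 cytokine receptor gene were followed in sorted mouse CD8 dendritic cells. They are Il12a, Il12b, Il15, Il15ra, Il16, Il1b, Il10, Ltb, Tnf and Tnfsf13b, 10 of the 27179 genes in the count files. They were chosen by name, as cytokine genes of a dendritic cell together with the chain that presents IL-15, and were found in the files by Entrez identifier and gene symbol. The series concerns dendritic cells that have become paralysed, that is, poor at starting immune responses, after a systemic inflammatory syndrome.

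All 7 samples were total RNA of CD8 dendritic cells from C57BL/6 mice, isolated by fluorescence-activated cell sorting. CD103 negative (n = 3) and CD103 low (n = 2) cells were untreated, and CD103 high cells (n = 2) were CpG treated, CpG being DNA motifs that engage the innate receptor TLR9. The last group is called CpG CD103 high here, because treatment and CD103 level occurred in the same samples and their effects cannot be told apart. Both CpG CD103 high libraries and CD103 negative replicates 1 and 2 were dated 2012, and CD103 negative replicate 3 and both CD103 low libraries were dated 2013. The labels do not say what was done on these dates, nor how many mice were pooled for a sample. The series' design text calls the samples biological replicates, but no label ties them to separate animals, so the p-values measure the spread between these samples. Neither the tissue nor the dose and timing of CpG were available from the labels.

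Itgae followed the sort labels. This gene, which encodes CD103, was at 59.57 ± 4.62 CPM (SD, n = 3) in CD103 negative, 360.2 ± 20.7 (SD, n = 2) in CD103 low and 1005 ± 19.3 (SD, n = 2) in CpG CD103 high cells. CPM is the count of a gene per 1000000 counts of its library, after scaling between libraries. Cd8a and Xcr1, a chemokine receptor gene of cross-presenting dendritic cells, were at 1207 CPM or more and 1323 CPM or more in every library. Total counts ran from 4474211 to 4629181 per library, so that 3 counts are worth 0.638 to 0.690 CPM after scaling. This was taken as an upper limit on the level behind a count of 0, although a higher level could also give 0 at times. This limit covers counting error only. A gene was taken as below detection in a group when no library of it had more than 3 counts.

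Dendritic cells tell T cells, natural killer cells and B cells what to do partly through secreted cytokines. IL-12 is a heterodimer of a p40 chain (Il12b) and a p35 chain (Il12a), and drives interferon gamma production. IL-15 is carried to the cell surface by IL-15 receptor alpha (Il15ra) and presented to CD8 T cells and natural killer cells, while IL-1 beta, TNF and lymphotoxin beta (Ltb) act on inflammation and lymphoid tissue, BAFF (Tnfsf13b) on B cell survival, and IL-10 restrains inflammation. Many of these genes are switched by nuclear factor kappa B (NF-kappaB) and interferon regulatory factors (IRFs), whose binding letters can be searched for in a promoter.

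Promoter windows of 300 bases, running from 250 bases before to 50 bases after an annotated start, were taken from RefSeq (GRCm38.p6, the mm10 build). They were present for 8 of the 10 genes, all but Il15 and Il10. The windows of Ltb and Tnf are printed because these neighbouring genes differed in their values, and both windows of Il15ra because it was the only one of the genes called for the date of the library. Capitals mark matches to a kappaB motif, GGNNTTTCC, or an IRF motif, GAAANNGAA, on either strand. The Ltb window is chr17:35194257-35194556 on the plus strand and the Tnf window chr17:35201958-35202257 on the minus strand. The Il15ra windows are chr2:11705043-11705342 and chr2:11705462-11705761, both on the plus strand.
Ltb: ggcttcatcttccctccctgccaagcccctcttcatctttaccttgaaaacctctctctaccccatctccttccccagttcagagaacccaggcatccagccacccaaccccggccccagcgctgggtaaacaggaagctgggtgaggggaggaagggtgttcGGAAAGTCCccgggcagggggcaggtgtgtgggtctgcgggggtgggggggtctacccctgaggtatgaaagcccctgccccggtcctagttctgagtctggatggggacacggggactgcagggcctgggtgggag
Tnf: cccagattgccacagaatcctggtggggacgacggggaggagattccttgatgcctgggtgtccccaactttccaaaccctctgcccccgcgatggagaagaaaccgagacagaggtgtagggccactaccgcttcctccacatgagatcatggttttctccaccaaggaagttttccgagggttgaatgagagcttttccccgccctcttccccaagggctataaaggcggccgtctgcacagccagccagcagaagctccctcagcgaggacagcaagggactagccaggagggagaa
Il15ra window 1: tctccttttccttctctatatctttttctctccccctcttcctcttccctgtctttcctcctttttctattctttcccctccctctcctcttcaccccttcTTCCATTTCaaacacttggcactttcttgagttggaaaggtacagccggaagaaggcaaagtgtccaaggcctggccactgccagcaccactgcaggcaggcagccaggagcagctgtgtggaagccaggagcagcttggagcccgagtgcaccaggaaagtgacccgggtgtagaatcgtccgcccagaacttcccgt
Il15ra window 2: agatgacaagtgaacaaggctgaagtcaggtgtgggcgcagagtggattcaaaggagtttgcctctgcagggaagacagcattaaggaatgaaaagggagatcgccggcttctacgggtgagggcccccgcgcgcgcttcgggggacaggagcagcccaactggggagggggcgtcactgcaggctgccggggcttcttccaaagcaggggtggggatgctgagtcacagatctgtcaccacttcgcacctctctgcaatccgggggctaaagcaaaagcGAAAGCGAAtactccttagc

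The Ltb window held a kappaB match, which began 87 bases before the start and read on the minus strand. The Tnf window held no match to the letters of either motif, but a TATA box match (TATAAA) beginning 29 bases before the start. The ETS motif GAGGAA was matched in both windows, beginning 101 bases before the start in Ltb and 117 in Tnf, and also in window 1 of Il15ra. Window 1 of Il15ra held an IRF match on the minus strand, 149 bases before the start. Window 2 held an IRF match on the plus strand beginning at base 31 after the start, and a match to the AP-1 motif TGANTCA beginning 30 bases before it. Of the 32851 windows in the table, 5.82% held the kappaB letters, 8.56% the IRF letters, 7.81% the AP-1 letters, 13.6% the TATA box letters and 28.3% the ETS letters, on either strand and with matches allowed to overlap those of another motif. A match describes the letters only and is not evidence of binding, and the lack of a match is not evidence that a binding site is absent.

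Of the 10 genes, 8 had enough counts to be tested, while Il12a and Il10 were below detection in all 3 groups. Of these 8, 4 were called in CpG CD103 high against CD103 negative cells: Ltb and Il1b were lower and Il15 and Il15ra higher. A gene counts as called where its edgeR p, adjusted by Benjamini-Hochberg over all genes, was under 0.05 in a fit that holds group and date. Of the 10863 genes tested, 26.3% were called in this comparison in either direction and 11.8% were called lower. The median log2 fold change of the 8 was 0.17, beside -0.0070 over all genes tested. None of the 8 was called by edgeR in CD103 low against CD103 negative cells, where 0.138% of genes were, and 1 (Il15ra) had an unadjusted p under 0.05. DESeq2 called 0 of the 8 there as well, but gave no adjusted p for Il15, Il15ra, Ltb and Tnfsf13b, which it therefore could not call. In a fit of the 2013 libraries alone, with 1 CD103 negative library, Il15ra was at -0.96 and Il1b at 0.66 on the log2 scale. Ltb (lower) and Il15ra (higher) were called in CpG CD103 high against CD103 low cells, where 6.22% of genes were called and 2.78% were lower. The first and last of these comparisons share the CpG CD103 high libraries, and the first 2 share CD103 negative cells.

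**Figure D1:**
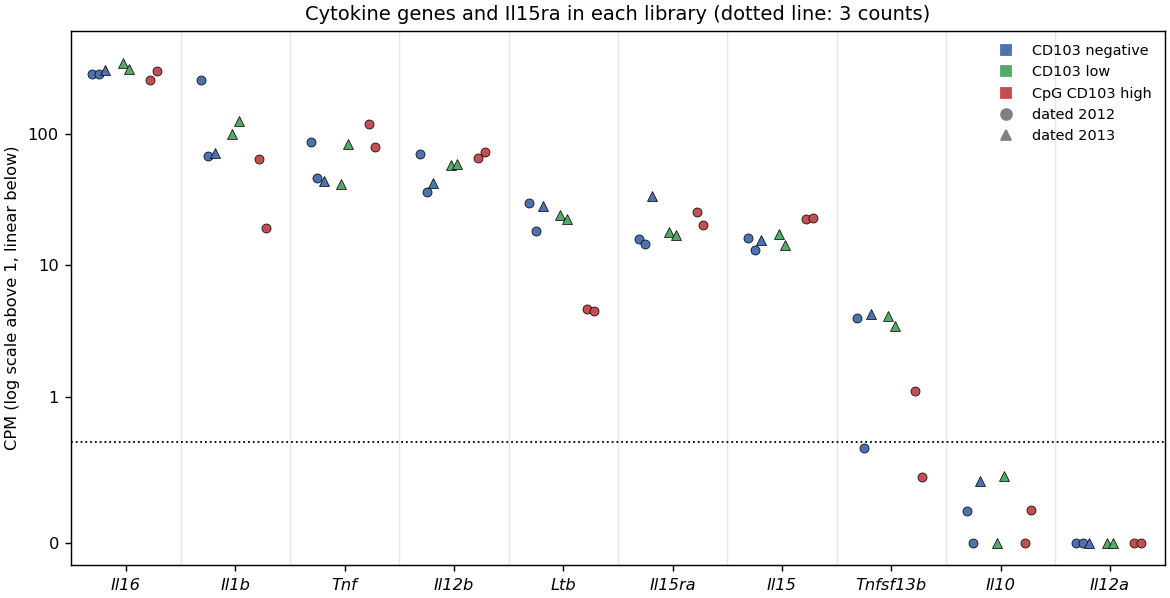
CPM of the 10 genes in each of the 7 libraries, on an axis that is logarithmic above 1 and linear below it; colour gives the group, the shape of the point gives the date, and the dotted line marks 3 counts. Both CpG CD103 high libraries lie at 4.48 and 4.66 CPM for Ltb, under all 5 untreated libraries, and Il12a lies at 0 in every library.

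Ltb encodes lymphotoxin beta, the membrane-anchored chain that holds lymphotoxin alpha at the cell surface and signals through the lymphotoxin beta receptor to organise lymphoid tissue. It lies at chr17:35194507-35196305 (plus strand) within the major histocompatibility complex. Its level was 29.86, 18.11 and 28.31 CPM in CD103 negative replicates 1, 2 and 3, 24.29 and 22.53 CPM in CD103 low cells, and 4.66 and 4.48 CPM in CpG CD103 high cells. These last values rest on 21 and 20 counts, against 84 to 136 counts in the untreated libraries, and the groups did not overlap. Means were 25.43 ± 6.38 (SD, n = 3), 23.41 ± 1.24 (SD, n = 2) and 4.57 ± 0.125 CPM (SD, n = 2), so that the CD103 negative mean was 5.56 times and the CD103 low mean 5.12 times that of CpG CD103 high cells. The log2 fold change of CpG CD103 high against CD103 negative was -2.38 (SE 0.28, adjusted p = 0.000376). Against CD103 low it was -2.11 (SE 0.39, adjusted p = 0.0158), and that call was lost without CD103 low replicate 1 (-2.06, adjusted p = 0.0815) or replicate 2 (-2.17, adjusted p = 0.0639). Between CD103 low and CD103 negative the difference was -0.27 with a 95% interval of -0.85 to 0.30.

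The genes on either side of Ltb were measured as well. Tnf lies 3062 bases away, followed after a further 1158 bases by Lta, which encodes lymphotoxin alpha, the partner chain of lymphotoxin beta. Lta was low in all groups, with means of 2.52 ± 0.568 CPM in CD103 negative (SD, n = 3), 2.06 ± 0.342 in CD103 low (SD, n = 2) and 2.56 ± 1.09 in CpG CD103 high cells (SD, n = 2). Its log2 fold change in CpG CD103 high against CD103 negative was 0.03 (SE 0.48, adjusted p = 0.966). Lst1, a leukocyte gene 6067 bases away on the other side, had a log2 fold change of -0.30 (SE 0.19, adjusted p = 0.264). Neither of them was called, nor was Tnf. Ltbr, the gene of the receptor for lymphotoxin beta, was at 58.76 ± 2.21 (SD, n = 3), 59.50 ± 4.49 (SD, n = 2) and 58.98 ± 0.269 CPM (SD, n = 2) in the same order.

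Because Ltb is also transcribed by B and T lymphocytes, markers of these cells were read in the same libraries. In bulk RNA, fewer cells of a type and less RNA per cell cannot be told apart. Of 12 B cell genes, 6 were measured, and 3 of these were lower and none higher in CpG CD103 high against CD103 negative cells: Ms4a1, which encodes CD20, at -2.71 (SE 0.21, adjusted p = 4.61e-05), Cd22 at -3.01 (SE 0.26, adjusted p = 8.02e-05) and Cd79b at -2.39 (SE 0.60, adjusted p = 0.0166). The other 3 were not called and had values of 0.16 (Ighm), 0.57 (Ighd) and 0.0039 (Fcrla). Over all genes tested, 11.8% were called lower in this comparison. The defining B cell gene Cd79a was at 0 in both CpG CD103 high libraries and at no more than 1.15 CPM in any other. The summed level of the 12 genes was 554.7 to 586.8 CPM in CpG CD103 high, 582.9 to 601.4 in CD103 negative and 633 to 645.3 in CD103 low libraries, and most of it came from Ighm. Of 11 T cell genes, 1 was measured and was not called by edgeR or DESeq2, with an unadjusted p under 0.05. Their summed level was 3.81 and 7.54 CPM in CpG CD103 high, 9.79 to 11.86 in CD103 negative, and 9.99 and 52.18 in CD103 low replicates 1 and 2. Ltb was at 24.29 and 22.53 CPM in the same pair of libraries. The part of other cells in the Ltb difference was not tested.

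**Figure D2:**
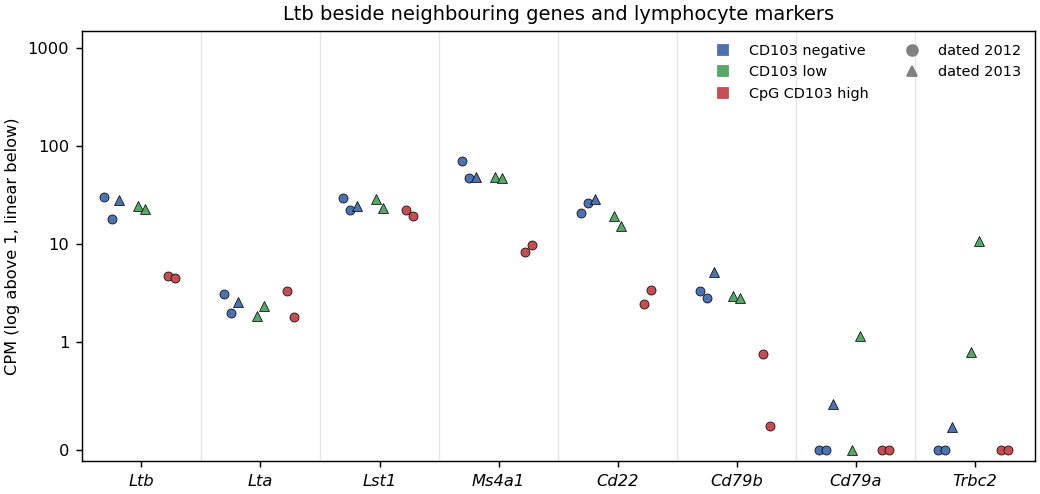
CPM of Ltb, its neighbours Lta and Lst1, B cell markers (Ms4a1, Cd22, Cd79b, Cd79a) and the T cell marker Trbc2 in each library, on an axis that is logarithmic above 1 and linear below it; colour gives the group and shape the date. Ltb, Ms4a1, Cd22 and Cd79b lie lower in both CpG CD103 high libraries than in the 5 untreated ones, while Lta and Lst1 overlap between the groups. The B cell genes Ighm, Ighd and Fcrla, which were measured and not called in CpG CD103 high against CD103 negative cells, are not plotted.

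Tnf encodes TNF, the inflammatory cytokine that is made on the membrane and shed by the protease ADAM17. It lies at chr17:35199367-35202007 (minus strand). Its level was 86.29, 45.92 and 43.84 CPM in CD103 negative replicates 1 to 3, 41.78 and 84.13 CPM in CD103 low, and 118.5 and 78.66 CPM in CpG CD103 high cells. The groups overlapped, since CD103 negative replicate 1 lay above 1 of the CpG CD103 high libraries. No comparison called it: the log2 fold change was 0.58 in CpG CD103 high against CD103 negative (95% interval -0.17 to 1.32, adjusted p = 0.229) and 0.52 in CD103 low against CD103 negative (-0.46 to 1.5, adjusted p = 0.866). The means were 58.68 ± 23.9 (SD, n = 3), 62.96 ± 29.9 (SD, n = 2) and 98.58 ± 28.2 CPM (SD, n = 2) in the same order.

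Tnfsf13b encodes BAFF, a survival factor for B cells, at chr8:10006229-10036000 (plus strand). It had 18, 3 and 20 counts in CD103 negative replicates 1 to 3, 18 and 15 in CD103 low, and 5 and 2 in CpG CD103 high cells, that is 3.95, 0.647 and 4.26 CPM, 4.09 and 3.45 CPM, and 1.11 and 0.448 CPM. CD103 negative replicate 2 lay within the CpG CD103 high range, and the lowest libraries were at or under the 3-count limit. The log2 fold change in CpG CD103 high against CD103 negative was -1.52 with a 95% interval of -3.39 to 0.35 (adjusted p = 0.209) and was not called. Without CD103 negative replicate 2 it was -2.30 (adjusted p = 0.0365), and without CD103 negative replicate 1 it was 0.26 (adjusted p = 0.879). Tnfrsf13c, which encodes the BAFF receptor, was higher by 1.59 on the log2 scale in CpG CD103 high against CD103 negative cells, at 8.25 ± 0.887 CPM (SD, n = 2) against 2.39 ± 1.17 (SD, n = 3; SE of the fold change 0.39, adjusted p = 0.0141).

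Of 15 other TNF superfamily ligand genes, 5 were measured and none was called by edgeR or DESeq2 in any of the 3 group comparisons. In CpG CD103 high against CD103 negative cells 1 had an unadjusted p under 0.05, beside 39.1% of all genes. In CD103 low against CD103 negative and in CpG CD103 high against CD103 low cells 0 had, beside 7.34% and 23.5%. Their median log2 fold change in CpG CD103 high against CD103 negative was 0.03. By CPM, Eda, the ectodysplasin gene, was the most abundant of the 5 in CD103 negative cells at 7.57 ± 1.27 (SD, n = 3) and in CD103 low cells at 7.42 ± 2.04 (SD, n = 2), with 4.79 ± 0.124 in CpG CD103 high cells (SD, n = 2) and a log2 fold change of -0.64 against CD103 negative (SE 0.31, adjusted p = 0.157). Per kilobase the highest was Tnfsf9, which encodes the 4-1BB ligand, at 4.05 RPKM in CD103 negative against 1.48 for Eda. Tnfsf9 was at 4.98 ± 1.42 CPM in CD103 negative (SD, n = 3), 5.25 ± 0.600 in CD103 low (SD, n = 2) and 6.46 ± 0.899 in CpG CD103 high cells (SD, n = 2). Its log2 fold change in CpG CD103 high against CD103 negative was 0.31 (SE 0.33, adjusted p = 0.524).

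Il1b encodes pro-IL-1 beta, which caspase-1 cleaves within the inflammasome, and lies at chr2:129364569-129371164 (minus strand). Its level was 254.7, 67.47 and 70.87 CPM in CD103 negative replicates 1 to 3, 100.1 and 125.5 CPM in CD103 low, and 64.12 and 19.05 CPM in CpG CD103 high cells. The CpG CD103 high libraries lay under all 5 untreated ones, although the gap between 64.12 and 67.47 CPM was small and CD103 negative replicate 1 stood far above the rest. Means were 131 ± 107 (SD, n = 3), 112.8 ± 18.0 (SD, n = 2) and 41.58 ± 31.9 CPM (SD, n = 2). Il1b was lower in CpG CD103 high than in CD103 negative cells by a log2 fold change of -1.95 (SE 0.58, 95% interval -3.24 to -0.66, adjusted p = 0.0324). The change was -0.70 (adjusted p = 0.347) without CD103 negative replicate 1, and -1.34 (adjusted p = 0.162) when CpG CD103 high replicate 2 was left out. It was -3.08 (adjusted p = 0.0154) when CpG CD103 high replicate 1 was left out and -1.95 without CD103 low replicate 1 (adjusted p = 0.0653) or 2 (adjusted p = 0.0642). It was -1.65 (adjusted p = 0.122) without the date term, and the call was also lost with DESeq2 (adjusted p = 0.172), without the filter on low counts (adjusted p = 0.0902) and with the 2012 libraries alone (adjusted p = 0.0646). An antisense gene, Il1bos, shares 1268 bases with Il1b, and reads of the pair cannot be told apart where the strand setting is not given. Against CD103 low the change was -2.62 (95% interval -4.66 to -0.58), which was not called (adjusted p = 0.117). Of 13 alternatives 3 called it, with values from -3.75 to -1.37 over all 13. The 3 were -3.75 when CpG CD103 high replicate 1 was left out, -3.28 (adjusted p = 0.0247) without CD103 negative replicate 2 and -1.68 (adjusted p = 0.0286) with a replicate block in place of the date term. Among those without a call were -1.44 without the date term (adjusted p = 0.25) and -2.62 with DESeq2 (adjusted p = 0.526).

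Il1b and Tnf differed between replicates of a group. CD103 negative replicate 1 was 3.78 times replicate 2 in Il1b and 1.88 times in Tnf. The same ratio was 3.37 and 1.51 in the CpG CD103 high pair and 0.798 and 0.497 in the CD103 low pair. It was set beside that of 7 genes of early responses to stimulation, Fos, Jun, Junb, Atf3, Zfp36, Nfkbiz and Nfkbia, chosen with these data known. Their ratios ran from 1.4 (Jun) to 3.53 (Atf3) in the CD103 negative pair and from 0.394 (Atf3) to 0.869 (Nfkbia) in the CD103 low pair. In the CpG CD103 high pair they ran from 0.873 (Jun) and 1.08 (Fos) to 2.87 (Atf3), so that not all lay on the side of Il1b. Ltb had ratios of 1.65, 1.04 and 1.08 in these pairs. The replicate numbers carry no order, and what made these libraries differ was not tested.

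The genes that process and release IL-1 beta and TNF were measured in full, 10 of 10, and 4 were higher and 2 lower in CpG CD103 high against CD103 negative cells. Beside this, 26.3% of all genes tested were called in either direction. The inflammasome sensor gene Nlrp3 was higher at 66.66 ± 4.25 CPM (SD, n = 2) against 39.62 ± 4.47 (SD, n = 3), a log2 fold change of 0.84 (SE 0.14, adjusted p = 0.00192). Furin, a proprotein convertase gene, was higher by 0.58 (SE 0.10, adjusted p = 0.00264), and Rhbdf2, whose product carries ADAM17 to the cell surface, by 0.91 (SE 0.17, adjusted p = 0.00367). The fourth was Gsdmd, the pore-forming gasdermin gene, at 0.47, while Casp1 (caspase-1) was lower at -0.48 and Pycard, the inflammasome adaptor gene, at -0.41. These 3, chosen after their values were seen, had adjusted p of 0.0432, 0.0425 and 0.0281. The list therefore did not move in 1 direction, and its median was 0.04. Nlrp3 was the only one of the 10 that was called against CD103 low cells, at 1.05 on the log2 scale. The CPM of Pycard overlapped, at 45.05 and 50.80 in CpG CD103 high, 40.65 to 64.55 in CD103 negative and 41.55 and 45.52 in CD103 low libraries. Those of Gsdmd overlapped too, at 64.34 and 85.39 in CpG CD103 high against 52.92 to 66.62 in CD103 negative libraries.

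Among 39 other interleukin and related genes, 6 were measured, with 1 higher and 1 lower in CpG CD103 high against CD103 negative cells by edgeR and 0 called by DESeq2. The edgeR share over all genes tested was 26.3%. Il18, whose product is also cleaved by caspase-1, was lower at 16.20 and 10.98 CPM, against 23.41 to 24.37 CPM in the 3 CD103 negative libraries. Its log2 fold change was -0.83 (SE 0.21, adjusted p = 0.0153), while in CD103 low cells it was at 24.29 and 19.31 CPM and was not called. Clcf1, which encodes a cytokine of the IL-6 family, was higher by 1.01 (SE 0.33, adjusted p = 0.0443) in the fit with the date. Its groups overlapped, at 6.66 and 11.88 CPM in CpG CD103 high against 4.10 to 9.58 in CD103 negative libraries. The mean was highest in untreated CD103 low cells, at 11.35 and 12.87 CPM.

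Il12b and Il12a encode the chains of IL-12, and only the first was detected. Il12b (chr11:44400063-44414677, plus strand) was at 70.48, 35.78 and 41.93 CPM in CD103 negative replicates 1 to 3, 57.67 and 59.08 CPM in CD103 low, and 65.45 and 71.94 CPM in CpG CD103 high cells. The CD103 negative libraries ran from below the CD103 low values to within the CpG CD103 high range. No comparison called Il12b: the log2 fold change was 0.37 in CpG CD103 high against CD103 negative (95% interval -0.16 to 0.90, adjusted p = 0.278), 0.48 in CD103 low against CD103 negative (-0.20 to 1.16, adjusted p = 0.804) and -0.11 in CpG CD103 high against CD103 low (-0.96 to 0.75, adjusted p = 0.899). The first of these rested on CD103 negative replicates 1 and 2, since it was 0.94 (adjusted p = 0.00561) without replicate 1 and -0.04 (adjusted p = 0.877) without replicate 2.

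Il12a (chr3:68690644-68698550, plus strand) had 0 counts in all 7 libraries. Per kilobase of counted gene length (RPKM, the CPM divided by that length), Il12b ran from 18.34 to 36.87 and the 3-count limit of Il12a from 0.466 to 0.503. Depending on the library, Il12b was at 38.9 to 75.1 times that limit. The other partner of p40 is p19, encoded by Il23a, and it had 1 count in each CpG CD103 high library and 0 elsewhere, which is under the limit. Of the chains of the related cytokine IL-27, Ebi3 was at 32.40 to 59.91 RPKM, and its partner Il27 had 1 to 13 counts per library and was too low to be tested. Ebi3 was lowest in CpG CD103 high cells at 37.94 and 42.13 CPM, against 48.29 to 54.06 CPM in CD103 negative and 69.42 and 70.16 CPM in CD103 low cells. It was not called, at a log2 fold change of -0.34 (SE 0.12, adjusted p = 0.0599) in CpG CD103 high against CD103 negative and -0.71 (SE 0.19, adjusted p = 0.0521) against CD103 low.

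**Figure D3:**
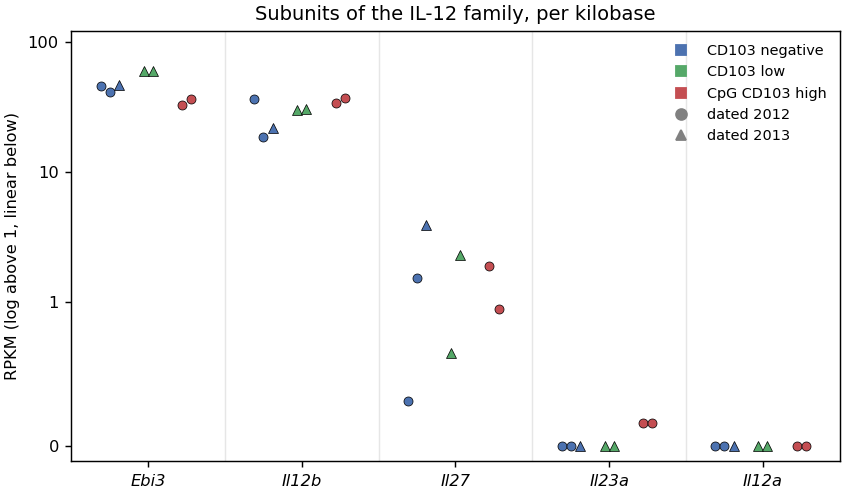
RPKM of the chains of the IL-12 family in each library, on an axis that is logarithmic above 1 and linear below it; colour gives the group and shape the date. Ebi3 and Il12b lie between 18.34 and 59.91 in every library, while Il12a lies at 0 and Il23a at 0 or 1 count.

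Il10 (chr1:131019845-131024970, plus strand), the gene of the inhibitory cytokine IL-10, had 1, 0 and 2 counts in CD103 negative replicates 1 to 3, 0 and 2 in CD103 low, and 0 and 1 in CpG CD103 high cells. No library passed the 3-count limit, so nothing can be said of a difference below it. The receptor chain gene Il10ra was measured and was higher by 0.37 on the log2 scale in CpG CD103 high against CD103 negative cells (SE 0.08, adjusted p = 0.00884).

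Il15 encodes IL-15 and lies at chr8:82331624-82403252 (minus strand). Its level was 16.03, 13.15 and 15.54 CPM in CD103 negative replicates 1 to 3, 17.26 and 14.25 CPM in CD103 low, and 22.41 and 22.86 CPM in CpG CD103 high cells. Both CpG CD103 high libraries lay above all 5 untreated ones, which overlapped with each other. Means were 14.91 ± 1.54 (SD, n = 3), 15.76 ± 2.13 (SD, n = 2) and 22.64 ± 0.318 CPM (SD, n = 2). Il15 was higher in CpG CD103 high than in CD103 negative cells by 0.63 on the log2 scale (SE 0.18, 95% interval 0.24 to 1.03, adjusted p = 0.0266). Against CD103 low the value was 0.61 (-0.03 to 1.26) and was not called (adjusted p = 0.234), and CD103 low differed from CD103 negative by 0.02 (-0.48 to 0.52, adjusted p = 0.993). The call against CD103 negative was lost when the fit left out CpG CD103 high replicate 1 (0.65, adjusted p = 0.0681), CpG CD103 high replicate 2 (0.61, adjusted p = 0.0952) or CD103 negative replicate 2 (0.50, adjusted p = 0.146), and with DESeq2 (0.63, adjusted p = 0.238).

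Il15ra encodes the receptor chain that carries IL-15 to the cell surface, and lies at chr2:11705172-11733985 (plus strand). Its level was 15.81 and 14.44 CPM in CD103 negative replicates 1 and 2, dated 2012, and 33.84 CPM in replicate 3, dated 2013. It was 17.94 and 17.01 CPM in CD103 low and 25.51 and 20.17 CPM in CpG CD103 high cells. The libraries of CpG CD103 high lay above both CD103 negative libraries of their own date and under the one of the other date. Il15ra was the only one of the 8 genes called for the date among CD103 negative cells, at 1.16 on the log2 scale (SE 0.20, adjusted p = 0.0153), where 3.46% of all genes were called. Replicate 3 is the only CD103 negative library dated 2013, so date and library cannot be told apart there. DESeq2 called 0 of the 8 for the date.

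With the date in the fit, Il15ra was higher in CpG CD103 high than in CD103 negative cells by 0.59 on the log2 scale (SE 0.17, 95% interval 0.21 to 0.98, adjusted p = 0.0311) and than in CD103 low cells by 1.55 (SE 0.26, 0.96 to 2.13, adjusted p = 0.0114). In CD103 low against CD103 negative cells it was -0.95 (-1.39 to -0.52), with an unadjusted p of 0.000635 in the edgeR fit of all genes and an adjusted p of 0.111. These last 2 values rest on CD103 negative replicate 3, the library that alone links the dates for the 2013 cells. Without it the change against CD103 low was 0.41 (adjusted p = 0.150) and that between CD103 low and CD103 negative was 0.18 (adjusted p = 0.577). That fit also held no date term and set CD103 low against libraries dated 2012 alone, so date and group cannot be told apart in it. Without the date term Il15ra was 0.09 higher in CpG CD103 high than in CD103 negative cells (adjusted p = 0.879), and the group means were 22.84 ± 3.78 (SD, n = 2) and 21.36 ± 10.8 CPM (SD, n = 3). Its call against CD103 negative was also lost when the libraries of 2012 were fitted alone (0.59, adjusted p = 0.0585), with DESeq2 (adjusted p = 0.243) and without the filter on low counts (adjusted p = 0.0544). The same held when the fit left out CpG CD103 high replicate 1 (0.41, adjusted p = 0.173), CD103 negative replicate 1 (0.66, adjusted p = 0.0788) or 2 (0.53, adjusted p = 0.136), or CD103 low replicate 1 (0.59, adjusted p = 0.0547) or 2 (0.59, adjusted p = 0.0543). The call against CD103 low was lost without CD103 low replicate 1 (1.58, adjusted p = 0.0625) or 2 (1.51, adjusted p = 0.0605). It was also lost without the date term (0.39, adjusted p = 0.593) and with a replicate block in its place (0.38, adjusted p = 0.145). Fbh1, a DNA helicase gene 8588 bases away, was also higher in CpG CD103 high than in CD103 negative cells, by 0.37 (SE 0.11, adjusted p = 0.0309), where 26.3% of all genes were called. Rbm17, the nearest measured gene on the other side, lies 101973 bases away. It was at 128.6 ± 5.16 CPM (SD, n = 2) against 136.3 ± 10.2 (SD, n = 3).

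Il16 encodes pro-IL-16, whose cleaved end attracts CD4-bearing cells, and lies at chr7:83642819-83746028 (minus strand). It had the most counts of the 10 genes, and its level was 283.9, 285.2 and 306.1 CPM in CD103 negative replicates 1 to 3, 344.2 and 308.3 CPM in CD103 low, and 256 and 300.8 CPM in CpG CD103 high cells. It was the steadiest of the 8 measured genes between groups in the first comparison, at -0.03 (95% interval -0.25 to 0.19, adjusted p = 0.844) for CpG CD103 high against CD103 negative. In CD103 low against CD103 negative it was 0.09 (-0.18 to 0.37, adjusted p = 0.918), although both CD103 low libraries lay above the 3 CD103 negative ones. Il16 was 1 of 8 genes whose groups did not overlap in that comparison, beside 28.3% of all genes tested. For 3 of 8 (Il15, Il1b and Ltb) the groups did not overlap in CpG CD103 high against CD103 negative cells, beside 44.7% of all genes. In the GENCODE annotation Stard5 on the opposite strand shares 10309 bases with Il16, so that some reads could belong to either gene. By the RefSeq positions Stard5 lies 491 bases outside Il16. A pseudogene on the same strand, Phgdh-ps1, shares 754 bases with Il16 in GENCODE.

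**Figure D4:**
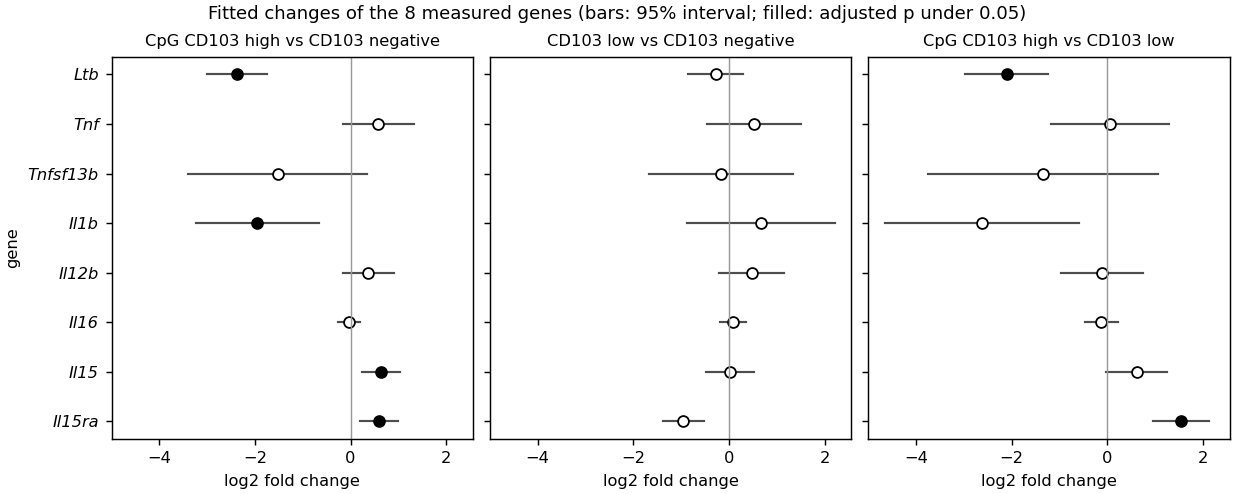
Log2 fold changes of the 8 measured genes in the 3 group comparisons, each with its 95% interval; filled points have an adjusted p under 0.05. Ltb and Il1b lie under 0 and Il15 and Il15ra above it in CpG CD103 high against CD103 negative cells, and no point is filled in CD103 low against CD103 negative cells.

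Compared per kilobase, the order of the 10 genes differed between the groups. In CD103 negative cells Il1b had the highest mean at 98.7 ± 80.7 RPKM, followed by Il16 at 58.5 ± 2.49, Tnf at 36.3 ± 14.8, Il12b at 25.3 ± 9.49 and Ltb at 23.2 ± 5.83 (SD, n = 3). The first place of Il1b there came from replicate 1 with 191.8 RPKM, since in replicates 2 and 3 Il1b was at 50.81 and 53.37 RPKM and Il16 was above it at 57.17 and 61.35. In CpG CD103 high cells Tnf led at 60.9 ± 17.4 RPKM, with Il16 at 55.8 ± 6.34, Il12b at 35.2 ± 2.35, Il1b at 31.3 ± 24.0 and Il15 at 17.6 ± 0.247 (SD, n = 2), and Ltb was at 4.17 ± 0.115. CD103 low cells had the same leading 5 genes in the same order as CD103 negative cells, from 85.0 ± 13.5 RPKM for Il1b to 21.4 ± 1.15 for Ltb (SD, n = 2). Tnf and Il16 in CpG CD103 high cells, and Il12b and Ltb in CD103 negative cells, lay within each other's SD.

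The receptors through which these cytokines act on the dendritic cell itself were read from a list of 17 genes, of which 12 were measured. Of these, 2 were higher and 4 lower in CpG CD103 high against CD103 negative cells, with a median of -0.34. Over all genes tested, 26.3% were called in either direction and 11.8% lower. Tnfrsf1b, which encodes TNF receptor 2, was lower at 47.25 and 49.75 CPM, against 115.1 to 139.2 CPM in CD103 negative and 105.5 and 113.1 CPM in CD103 low libraries. Its log2 fold change was -1.36 (SE 0.11, adjusted p = 5.28e-05) against CD103 negative and -1.01 (SE 0.17, adjusted p = 0.0111) against CD103 low. Tnfrsf1a, the gene of TNF receptor 1, was at 130 ± 7.16 (SD, n = 3), 145.8 ± 11.5 (SD, n = 2) and 147.6 ± 1.70 CPM (SD, n = 2) in CD103 negative, CD103 low and CpG CD103 high cells and was not called. Il12rb2, an IL-12 receptor chain gene, was lower at -0.63 (SE 0.12, adjusted p = 0.00473), and Cd4, the gene of the IL-16 receptor and also a marker of other dendritic cells and T cells, was lower at -0.97 (SE 0.19, adjusted p = 0.00484). The fourth was Il2rg, the common gamma chain gene used by the IL-15 receptor, at -0.84 (SE 0.17, adjusted p = 0.00565), and it was named after its value was seen. The 2 higher ones were Il10ra and Tnfrsf13c, given above.

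Of 22 genes of transcription factors that act on cytokine genes, all were measured, and 4 were higher and 3 lower in CpG CD103 high against CD103 negative cells, with a median of -0.03. Over all genes tested, 26.3% were called in this comparison. All 4 higher ones belong to the IRF family, but Irf4 of that family was lower. Irf3 was not called, at 61.32 ± 0.757 CPM (SD, n = 2) against 56.46 ± 4.99 (SD, n = 3). Irf1 was at 299.8 ± 20.9 CPM (SD, n = 2) against 173.4 ± 16.6 (SD, n = 3), a log2 fold change of 0.87 (SE 0.09, adjusted p = 0.000212), and Irf7 rose by 1.03 (SE 0.15, adjusted p = 0.000979). The other 2 were Irf8 at 0.39 and Irf5 at 0.38, while Irf4 was lower at -1.82 and Nfkb2, an NF-kappaB subunit gene, at -0.47. These 4 were named after their values were seen. Jun, the gene of an AP-1 subunit, was lower at -1.54 (SE 0.24, adjusted p = 0.00143), but its level also ranged from 521.7 to 1318 CPM within CD103 negative cells. Irf1 (1.04), Irf7 (0.95) and Jun (-1.97) were also called against CD103 low cells.

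A further group of genes that shorten the life of cytokine transcripts or brake cytokine signalling had all of its 14 listed members measured, and 3 were higher and 3 lower, with a median of -0.27. Beside this, 26.3% of all genes tested were called in CpG CD103 high against CD103 negative cells. Socs1, a brake on interferon and common gamma chain signalling, was higher at 25.63 ± 3.61 CPM (SD, n = 2) against 7.42 ± 1.57 (SD, n = 3), a log2 fold change of 1.88 (SE 0.24, adjusted p = 0.00059). Rc3h2, which encodes the RNA-binding protein roquin-2, was higher by 0.72 (SE 0.11, adjusted p = 0.00129) in the fit with the date. Its level was 76.54 and 77.32 CPM in CpG CD103 high, 46.11 to 73.21 in CD103 negative and 68.04 and 76.06 in CD103 low libraries. Hnrnpd, which encodes AUF1, a protein that binds AU-rich transcripts, was lower at -0.49 (SE 0.08, adjusted p = 0.00196). In CD103 low against CD103 negative cells edgeR called none of the genes in these lists of ligands, receptors, processing, transcription factors or decay. At an unadjusted p under 0.05 there were 6 receptor genes, 2 interleukin genes, 1 transcription factor gene and 0 in the other lists, beside 7.34% of all genes, and DESeq2 called 1 receptor gene and 0 of the rest.

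Genes of dendritic cell maturation were read beside these results. Of 16 listed, 15 were measured, and 1 was higher and 9 lower in CpG CD103 high against CD103 negative cells, with a median of -1.23. Here and for the lists that follow, the share over all genes tested was 26.3% in either direction and 11.8% lower. Those with the smallest adjusted p were Ccl5, a chemokine gene, at -2.36, Apol7c at -2.62 and Fscn1, the fascin gene of migrating dendritic cells, at -1.77. The summed level of the list was 1517 and 1654 CPM in CpG CD103 high, 2624 to 3483 in CD103 negative and 3273 and 3634 in CD103 low libraries. The summed level of 10 macrophage genes was 23.31 and 39.93 CPM in CpG CD103 high against 75.02 to 103.2 in CD103 negative and 70.80 and 115.6 in CD103 low libraries, and that of 10 monocyte and neutrophil genes was 118.6 and 171.9 CPM against 193.4 to 266.9 and 260.2 to 279.7. Among these lists, 0 macrophage genes were higher and 2 lower of 6 measured, with a median of 1.17 that has the opposite sign to the sum, and 3 monocyte and neutrophil genes were higher and 2 lower of 5, with a median of 1.96. Of cDC2 genes, which mark the other conventional dendritic cells, 0 were higher and 4 lower of 7 measured (median -1.10), and their sum was 39 and 58.35 CPM against 65.10 to 126 in CD103 negative and 79.69 and 79.77 in CD103 low libraries. Of plasmacytoid dendritic cell genes 1 was higher and 3 lower of 7 (median -1.09), with sums of 210 and 239.4 CPM against 205.7 to 282.4 and 177.9 and 193. Erythroid and platelet genes were higher for 5 and lower for 0 of 6 (median 3.06), with sums of 31.95 and 35.63 CPM against 3.29 to 4.89 and 8.96 and 19.75. Of natural killer and innate lymphoid cell genes 0 were higher and 1 lower of 2. Genes of cDC1 identity, the subset that CD8 dendritic cells belong to, were higher for 9 and lower for 0 of 14 (median 0.38). The part of all these in the values of the cytokine genes was not tested.

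**Figure D5:**
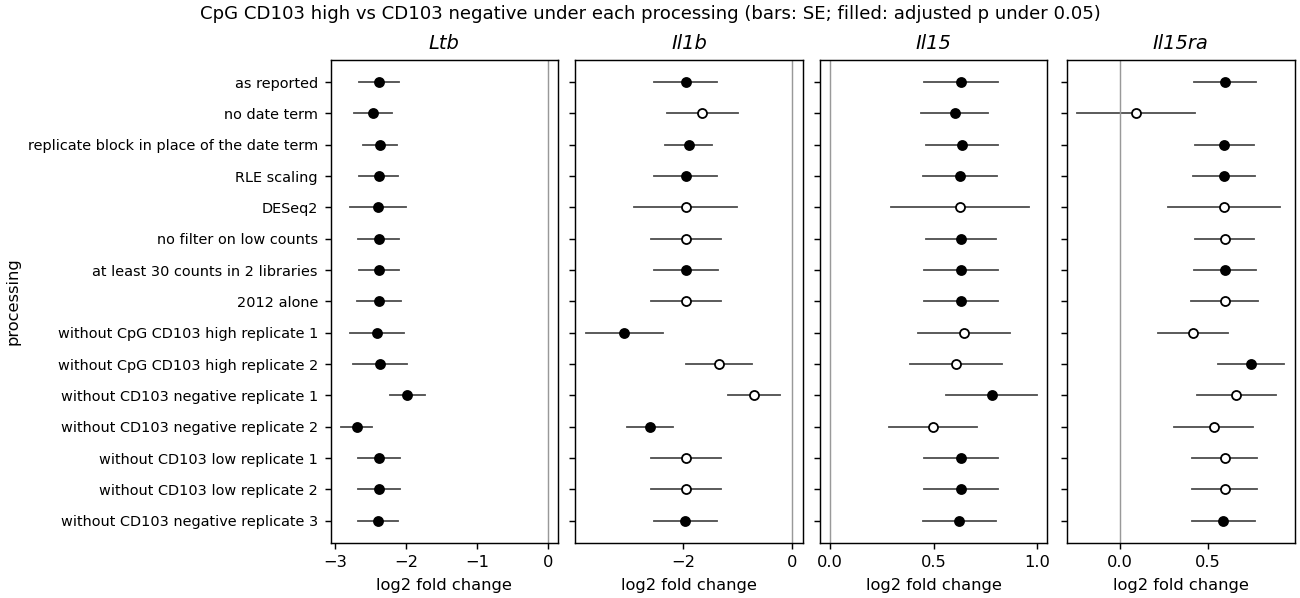
Log2 fold changes of Ltb, Il1b, Il15 and Il15ra in CpG CD103 high against CD103 negative cells as reported and under each other processing, with bars for the SE; filled points have an adjusted p under 0.05. Ltb is called in all 14 alternatives, Il15 in 10, Il1b in 6 and Il15ra in 5.

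Across the 14 other ways of processing the counts, the Ltb log2 fold change in CpG CD103 high against CD103 negative cells ran from -2.70 to -1.98 and was called each time. That of Il15 ran from 0.50 to 0.78, that of Il1b from -3.08 to -0.70 and that of Il15ra from 0.09 to 0.74. The direction of these 4 genes did not change in any of them.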

How the data were processed

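Expression was measured by RNA sequencing in the 7 samples. The deposited files hold raw counts of reads per gene with a gene length, 1 file per sample, per the file headers. CASAVA, Subread 1.4.6, featureCounts and mm10 are listed per the submitters' processing notes. Neither a strand setting, nor the handling of multi-mapping reads, nor an annotation release is given in those notes. A further table with 7 columns that match no sample label was not used.

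Symbols and coordinates came from the RefSeq gene table (25275 of 27179 identifiers matched) and overlaps from GENCODE M21. Counts were fitted with edgeR 4.0.16 in R 4.3.3: genes kept by filterByExpr (10863), trimmed mean of M-values (TMM) scaling, and a quasi-likelihood model with group and date on all 7 libraries (3 residual degrees of freedom). The date term sets CpG CD103 high against CD103 negative replicates 1 and 2, and CD103 low against replicate 3 alone. The SE is the log2 fold change divided by the square root of F, and adjusted p-values cover all genes tested. CPM are on TMM-scaled totals. On simulated data the fit recovered 70% of 100 genes changed by 1 and 100% of 100 changed by 2 on the log2 scale in CpG CD103 high against CD103 negative, over 10863 genes, and 2.86% of its calls were false. The simulation gave all genes the same spread and no date effect, and changed only genes above a minimum of counts. It therefore cannot give these shares for real genes whose replicates differ more. No libraries agreed within sampling noise.

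Alternatives were no date term, a replicate block, relative log expression (RLE) scaling, DESeq2 1.42.0, no filter, a stricter filter, 1 date alone and leaving out each library. The fits of 1 date alone and the fit without CD103 negative replicate 3 also held no date term. The genes to name were all 10 cytokine and receptor genes, up to 3 called genes of each list by adjusted p, or else its most abundant measured gene, the nearest measured neighbours, and Itgae, Cd8a and Cd74 as checks. Not all of these are given above: values of Cd74, most of the neighbours and many genes of the cell type lists are left out. Others named are said to be so or serve as markers or partner chains. The members and lists were chosen with earlier results of these data known.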

Additional observations from a re-analysis of the deposited data

How the results depend on the processing

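In CpG CD103 high against CD103 negative cells, 4 of the 8 measured genes were called. Without the date term 2 were called (and 1589 of all genes in place of 2860), with DESeq2 1 (1459 of all genes), without the filter on low counts 2, with the 2012 libraries alone 2, and with 1 library left out 2 to 4 (1738 to 2861 of all genes). In CD103 low against CD103 negative cells 0 were called, except 2 with the 2013 libraries alone. Of all genes, 15 were called there, against 40 with DESeq2, 1 without the filter, 7 with at least 30 counts in 2 libraries, 187 with the 2013 libraries alone and 1 to 1035 with 1 library left out. In CpG CD103 high against CD103 low cells 2 were called, against 1 without the date term and 0 to 3 with 1 library left out. Of all genes, 676 were called there, against 382 with DESeq2, 263 without the filter and 115 to 1668 with 1 library left out. For the date among CD103 negative cells 1 was called, against 0 with DESeq2 and 0 to 1 with 1 library left out, and of all genes 376, against 220 with DESeq2, 103 without the filter and 93 to 612 with 1 library left out. The highest count in CD103 low against CD103 negative cells, 1035, came from the fit without CD103 negative replicate 3. That fit held no date term, so it set libraries dated 2013 against libraries dated 2012. The cause of these differences was not tested.

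With a replicate block in place of the date term, the counts of all genes called were 1175 in CD103 low against CD103 negative and 1775 in CpG CD103 high against CD103 low cells, and the same comparisons called 0 and 3 of the 8. Only a number links these samples: the difference between replicates 1 and 2 correlated across genes at 0.168 between CpG CD103 high and CD103 negative, 0.00245 between CD103 low and CD103 negative and -0.00641 between CpG CD103 high and CD103 low, over 2 pairs. With the block, CD103 low against CD103 negative turned direction for Il15ra (0.21), Il1b (-0.22), Tnf (-0.028) and Tnfsf13b (0.78), and CpG CD103 high against CD103 low for Il12b (0.24), none of them called. Without the date term the direction turned for Il1b (-0.21) and Tnfsf13b (0.35) in CD103 low against CD103 negative, and for Il12b (0.23) in CpG CD103 high against CD103 low cells.

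With 1 library left out, log2 fold changes of genes that were not called crossed 0. In CpG CD103 high against CD103 negative cells they ran from -0.037 to 0.94 for Il12b, -0.16 to 0.079 for Il16 and -2.30 to 0.26 for Tnfsf13b. In CD103 low against CD103 negative cells they ran from -0.12 to 0.15 for Il15, -0.99 to 0.18 for Il15ra, -0.54 to 0.83 for Il1b, -0.097 to 0.94 for Tnf and -0.30 to 0.69 for Tnfsf13b. The ends at 0.18 (Il15ra), -0.54 (Il1b), -0.097 (Tnf) and 0.69 (Tnfsf13b) came from the fit without CD103 negative replicate 3, which held no date term. In CpG CD103 high against CD103 low cells they ran from -0.51 to 0.46 for Il12b, -0.37 to 0.67 for Tnf and -2.21 to 0.43 for Tnfsf13b. Of the 324 values of single genes under alternatives, 265 kept direction and call, 28 lost the call, 8 gained it and 23 turned direction. A missing DESeq2 adjusted p counted as not called.

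A group left with 1 library is assumed to vary like the others. The 2012 and 2013 libraries alone cannot give CpG CD103 high against CD103 low, fits without the date term, with the block or without CD103 negative replicate 3 give no date value, and the stricter filter drops Tnfsf13b. Depth limits Il12a and Il10, which had no more than 2 counts in any library.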
